A study of Mus musculus with 12 samples.

Results

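Besides Kdm3a, the gene mutated in this study, several other enzymes remove methyl groups from lysine 9 of histone H3 (H3K9). The genes described here are 8 of them: Kdm4a, Kdm4b, Kdm4c and Kdm4d of the KDM4 family, Kdm1a, which encodes LSD1, and Phf8, Phf2 and Kdm7a of the PHF family. They were chosen by name, through the accession that the array gives each probe, and are 8 of the 18749 gene symbols on the array. They were measured by 13 of the 27479 named probes. All 13 probes were well above background on all 12 arrays, none was saturated, and all 8 genes passed the filter on dim probes.

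RNA came from gonadal somatic cells of mouse embryos at day 11.5, before the testis and the ovary differ in form. Every embryo carried the Nr5a1/CD271 transgene, which places the surface protein CD271 on cells that express Nr5a1, and cells were taken from gonads and mesonephroi by magnetic selection for CD271. Control females and control males were heterozygous for the Jmjd1a (Kdm3a) mutant allele, so no wild-type embryo was used, and mutant females and mutant males were homozygous for it. Each of the 4 groups held 3 single embryos, 1 array each; the labels name no litters. With 3 arrays a group, the number of arrays limits precision throughout.

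H3K9 methylation marks silent chromatin, and demethylases of this mark allow genes to be expressed. The KDM4 and PHF proteins, like Kdm3a, carry a JmjC domain and use iron and 2-oxoglutarate, whereas LSD1 is a flavin-dependent amine oxidase with no JmjC domain. KDM4 enzymes can remove the trimethyl mark, while Kdm3a, LSD1 and the PHF enzymes act on lower methylation states. In the fetal gonad, Kdm3a is known for removing H3K9 dimethylation at Sry, the gene that starts testis development.

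Phf8, Phf2 and Kdm7a also hold a PHD finger that binds methylated H3K4, a mark of active promoters. Promoters were found in RefSeq (build GRCm38.p6) for 7 of the 8 genes, as windows of 300 bases from 250 before to 50 after the start. By their representative probes, Phf2 and Kdm4a rose and fell together from array to array, as described further on. Phf2 and Kdm7a did not, with Pearson's r at -0.54 over the 12 arrays and -0.79 with group means removed. The 3 windows below were picked because CG content divides these genes differently, and no relation of CG content to levels was tested. Each is written 5′ to 3′ on the strand of the gene, and capitals mark CG, which reads the same on both strands.
Phf2, chr13:48870836-48871135, minus strand: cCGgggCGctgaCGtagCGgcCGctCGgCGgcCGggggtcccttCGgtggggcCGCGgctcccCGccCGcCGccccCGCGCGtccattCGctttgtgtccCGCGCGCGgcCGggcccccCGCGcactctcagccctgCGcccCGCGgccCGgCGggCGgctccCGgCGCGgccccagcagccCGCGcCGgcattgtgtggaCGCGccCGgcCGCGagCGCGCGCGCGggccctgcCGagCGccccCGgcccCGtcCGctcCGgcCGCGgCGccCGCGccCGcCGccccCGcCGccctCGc
Kdm7a, chr6:39206724-39207023, minus strand: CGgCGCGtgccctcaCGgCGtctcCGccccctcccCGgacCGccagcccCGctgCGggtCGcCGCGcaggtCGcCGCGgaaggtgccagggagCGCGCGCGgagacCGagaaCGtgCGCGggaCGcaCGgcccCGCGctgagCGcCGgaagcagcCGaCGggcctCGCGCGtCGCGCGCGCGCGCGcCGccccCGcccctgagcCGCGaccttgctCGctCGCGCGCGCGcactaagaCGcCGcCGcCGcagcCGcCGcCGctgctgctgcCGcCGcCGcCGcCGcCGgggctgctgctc
Kdm4a, chr4:118179994-118180293, minus strand: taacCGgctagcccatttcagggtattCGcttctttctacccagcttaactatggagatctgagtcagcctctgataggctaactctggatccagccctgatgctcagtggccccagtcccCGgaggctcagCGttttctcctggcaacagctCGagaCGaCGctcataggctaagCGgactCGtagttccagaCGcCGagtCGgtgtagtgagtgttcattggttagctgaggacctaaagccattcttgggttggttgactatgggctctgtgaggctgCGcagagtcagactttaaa
The windows of Kdm7a and Phf2 hold 65 and 63 CG pairs. Of all 32851 promoter windows of the same length, whose median was 7, 0.00913% held at least as many as Kdm7a and 0.0304% at least as many as Phf2. Kdm4a holds 13, a count reached by 37.9% of the windows. Kdm1a and Phf8, whose representative probes also rose and fell with that of Kdm4a, hold 29 and 26. Across the 8 windows of the 7 genes the counts ran from 0 to 65, and Kdm4c, with 2 annotated starts, gave both 0 and 28. CG pairs are a description of the letters alone, and methylation of DNA was not measured.

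Between 58.0% and 65.2% of the spots passed background on each array, and 75th percentiles of signal ran from 142.9 to 299.5. Levels are log2 of the processed signal minus the array's own 75th percentile, so 0 marks that percentile. A difference is one of means of such levels, with the standard error (SE) of a limma fit over all 12 arrays. A gene was called where its p, adjusted by the Benjamini-Hochberg method over all 19178 features tested, was under 0.05. Kdm3a itself checked the genotype labels: its log2 level was 2.89 ± 0.0735 (SD, n = 3) in control females and 0.62 ± 0.165 in mutant females. In males it was 2.86 ± 0.165 in controls and 0.91 ± 0.183 in mutants. Kdm3a fell in both sexes (limma, adjusted p = 4.16e-05 in females and 9e-05 in males); the labels do not say where its probes lie relative to the mutation. All 7 markers of gonadal somatic cells, Nr5a1, Gata4, Wt1, Lhx9, Emx2, Nr0b1 and Tcf21, were well above background on all 12 arrays. In bulk RNA, fewer cells of a type and less RNA per cell cannot be told apart.

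None of the 8 demethylases was called for the mutant effect in either sex or on average, for the sex difference in either genotype, or for the difference between the mutant effects. Among all features, 0.469% were called for the mutant effect in males, 0.355% in females and 1.12% on average over the sexes. At an unadjusted p under 0.05, limma gave 0 of the 8 in males, 1 in females and 3 on average, where the shares of all features were 11.9%, 10.4% and 23.6%. These counts among 8 genes lie near the background shares. On the scale of differences the 8 representative probes had a median of 0.27 in males and 0.28 in females, against -0.05 over all features in each sex. The difference was above 0 for 7 of the 8 in males and 6 of the 8 in females, where 44.6% and 43.3% of all features were above 0. These counts depend on the probe chosen for each gene. All further probes were below 0 in females: Kdm4a at -0.10, Kdm4c at -0.38, Phf8 at -0.44 and Kdm7a at -0.32 and -0.26. In males the further probes were below 0 too, except that of Kdm4a, at 0.22.

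**Figure D1:**
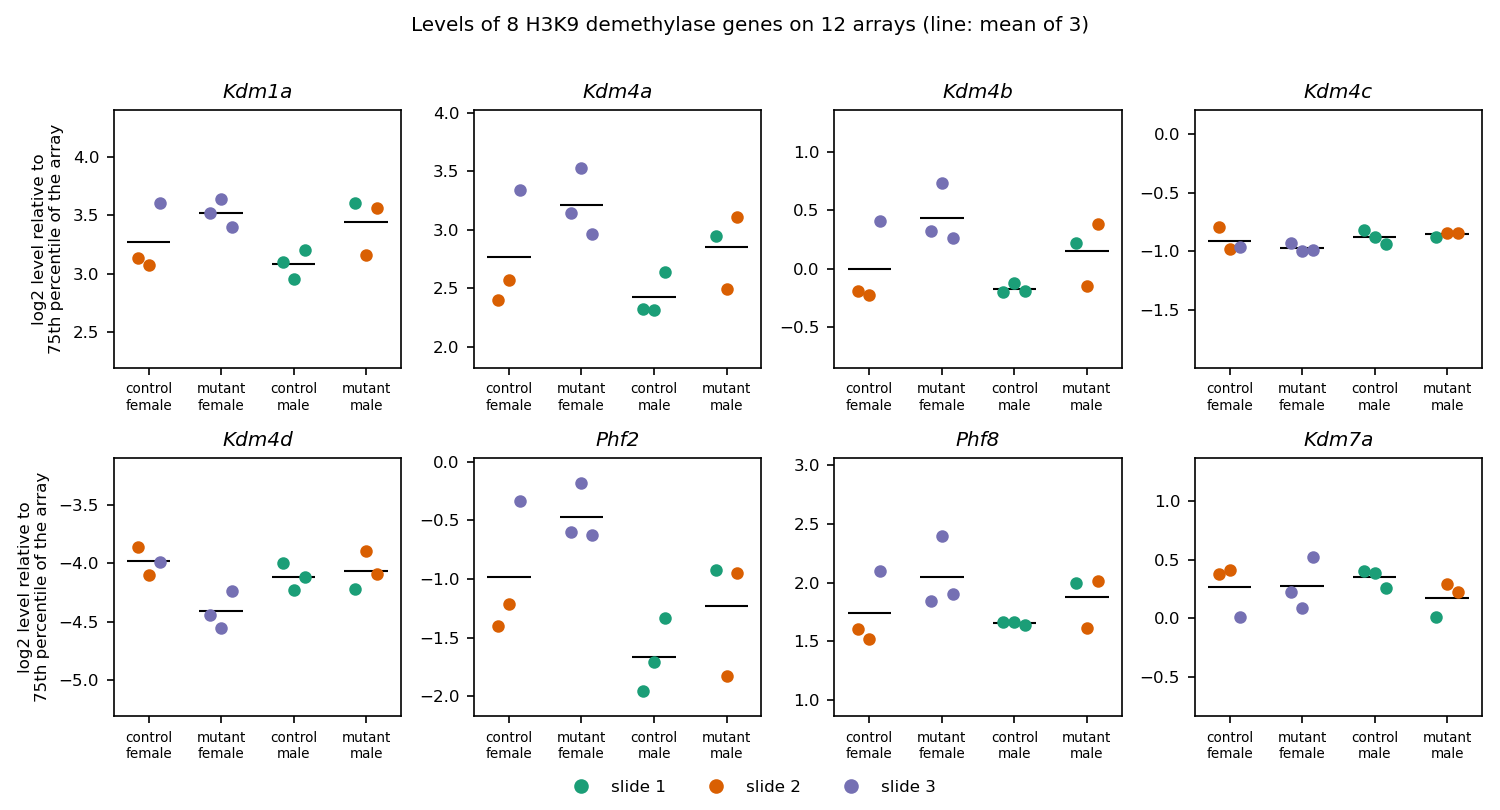
Log2 level of the representative probe of each H3K9 demethylase on the 12 arrays, relative to the 75th percentile of the array, with a point for each embryo coloured by slide and a line for the mean of each group of 3. Control female 3 sits above control females 1 and 2 for Kdm4a, Kdm4b, Kdm1a, Phf8 and Phf2, and only Kdm4d separates the control from the mutant females.

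Kdm4a encodes a demethylase of trimethylated H3K9 and H3K36 with tudor domains that read methylated histones. In log2 levels, control females 1 to 3 gave 2.40, 2.57 and 3.34, against 3.14, 3.53 and 2.96 from mutant females. Control males gave 2.32, 2.31 and 2.64, against 2.95, 2.49 and 3.11 from mutant males. Control female 3 lay among the mutant females, and mutant male 2 among the control males, so controls and mutants overlapped in both sexes. The log2 difference between mutants and controls was 0.44 ± 0.257 (SE) in females and 0.43 ± 0.257 in males (limma, adjusted p = 0.49 and 0.455). In the order of the group means, mutant females (3.21) stood above mutant males (2.85), control females (2.77) and control males (2.42), and each pair of neighbours in that order overlapped.

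Kdm4b, a close relative of Kdm4a with the same domains, varied less from array to array. The control females had log2 levels of -0.19, -0.22 and 0.41 and the mutant females of 0.32, 0.73 and 0.26. The control males had -0.20, -0.12 and -0.19 and the mutant males 0.22, -0.15 and 0.38. Again control female 3 lay within the range of the mutant females, and mutant male 2 within that of the control males. The log2 difference was 0.43 ± 0.2 (SE) in females and 0.32 ± 0.2 in males, and neither was called (limma, adjusted p = 0.479 and 0.467). The order of the group means was that of Kdm4a, from 0.44 in mutant females to -0.17 in control males.

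Kdm4c, the third KDM4 enzyme with tudor domains, was the steadiest of the 8. Its representative probe gave log2 levels of -0.79, -0.98 and -0.96 for the control females and -0.93, -1.0 and -0.99 for the mutant females. For males these were -0.82, -0.88 and -0.94 in controls and -0.88, -0.84 and -0.84 in mutants. All 12 values lay within a 1.15-fold range, and the SD within groups, 0.0644, was lower than that of all but 1.1% of the features (median 0.236). The log2 difference between mutants and controls was -0.06 in females, with a 95% interval from -0.27 to 0.16, and 0.03 in males, with one from -0.19 to 0.24.

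Kdm4d, a shorter KDM4 enzyme without tudor domains, best known from the testis, was dim but measured on every array. Among females, the controls had log2 levels of -3.86, -4.10 and -3.99 and the mutants of -4.44, -4.55 and -4.24. Among males they were -4.00, -4.23 and -4.12 in controls and -4.22, -3.90 and -4.09 in mutants. All mutant females lay below all control females, whereas mutant and control males overlapped. The log2 difference in females was -0.42 ± 0.13 (SE), a 1.34-fold lower level with a 95% interval from -0.71 to -0.14. It had the smallest p of the members in a single sex (limma, unadjusted p = 0.00769) and was not called (adjusted p = 0.35).
Kdm4d was the only member of the 8 whose control and mutant females did not overlap, a pattern shown by 12.7% of all features. In males none of the 8 separated controls from mutants, against 20.3% of all features. The male log2 difference of Kdm4d was 0.05 ± 0.13, and the mutant effects of the sexes differed by 0.48 ± 0.184 (male minus female). This difference had an unadjusted p of 0.0256 in limma and an adjusted p of 1. It was 0.65 under normexp with the local backgrounds as deposited and 0.16 with flagged backgrounds replaced. The female difference was -0.26 under both normexp settings and -0.27 under quantile normalization. For the difference between the mutant effects, 0 features were called, which is 0% of those tested. Of all features, 3.66% had an unadjusted limma p under 0.05 for it, and 1 of the 8 members, Kdm4d, was among them.

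Kdm1a encodes LSD1, which removes mono- and dimethyl groups from H3K4 and, in some complexes, from H3K9. Log2 levels for the control females were 3.13, 3.07 and 3.60, with 3.52, 3.64 and 3.40 for the mutant females. The control males followed at 3.10, 2.95 and 3.20, with the mutant males at 3.60, 3.16 and 3.56. As for Kdm4a, control female 3 and mutant male 2 lay in the range of the opposite genotype. The log2 difference was 0.25 ± 0.169 (SE) in females and 0.36 ± 0.169 in males, the latter with the smallest p of the representative probes in males (limma, unadjusted p = 0.0581, adjusted p = 0.427).

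Phf8 is X-linked and encodes a demethylase of mono- and dimethylated H3K9 and of H4K20. By its representative probe, control females had log2 levels of 1.60, 1.52 and 2.10 and mutant females of 1.84, 2.40 and 1.90. Levels in males were 1.66, 1.66 and 1.64 in controls and 2.00, 1.61 and 2.01 in mutants. The control males lay close together, with mutant male 2 just below them and the other mutant males above. The log2 difference was 0.31 ± 0.193 (SE) in females and 0.22 ± 0.193 in males (limma, adjusted p = 0.501 and 0.554).

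Phf2 encodes a JmjC protein whose activity on dimethylated H3K9 is known to depend on phosphorylation and on its partner Arid5b. It varied most among the representative probes, with log2 levels of -1.40, -1.21 and -0.33 for control females against -0.60, -0.18 and -0.62 for mutant females. In males the levels were -1.96, -1.71 and -1.33 in controls and -0.92, -1.83 and -0.95 in mutants. The SD within groups was 0.435, at percentile 87.4 of all features, and the arrays spanned a 3.45-fold range. Mutant females were highest on average (-0.46), followed by control females (-0.98), mutant males (-1.23) and control males (-1.67). Neighbours in that order overlapped. The log2 difference between mutants and controls was 0.52 ± 0.317 (SE) in females and 0.43 ± 0.317 in males, and neither was called (limma, adjusted p = 0.496 and 0.499). The same differences were 0.11 and 0.15 in a fit that included array brightness.

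Kdm7a encodes a demethylase of dimethylated H3K9 and H3K27. On its representative probe the control females read 0.38, 0.41 and 0.01 on the log2 scale and the mutant females 0.22, 0.09 and 0.52. The control males read 0.40, 0.39 and 0.26 and the mutant males 0.01, 0.29 and 0.22. Here control female 3 and mutant male 1 were the lowest arrays, whereas both were among the high arrays for Kdm4a and Phf2. The log2 difference was 0.0035 ± 0.151 (SE) in females and -0.18 ± 0.151 in males (limma, adjusted p = 0.991 and 0.546).

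Averaged over both sexes, 3 members had an unadjusted limma p under 0.05, and none was called. The log2 difference was 0.44 ± 0.182 (SE) for Kdm4a, 0.38 ± 0.142 for Kdm4b and 0.31 ± 0.119 for Kdm1a (limma, adjusted p = 0.195, 0.18 and 0.186). For Phf2 it was 0.48 ± 0.224, for Phf8 0.26 ± 0.137 and for Kdm4d -0.19 ± 0.092 (limma, adjusted p = 0.221, 0.244 and 0.231). Kdm7a, at -0.09, and Kdm4c, at -0.01, were closest to 0. Without control female 3, 4826 of the 19178 features were called on average instead of 214, so calls were common in that fit. Of the 8 members, 4 were among them. Those were Kdm4a at 0.58, Kdm4b at 0.48, Kdm1a at 0.39 and Phf2 at 0.64 on the log2 scale (limma, adjusted p = 0.0298, 0.0296, 0.0309 and 0.0417). So 1 control array decided whether these members were called. With array brightness as a covariate, the averaged difference was 0.18 for Kdm4a, 0.24 for Kdm4b, 0.18 for Kdm1a and 0.13 for Phf2, and none was called. With slide as a block it was 0.20, 0.21, 0.22 and 0.30, also uncalled.

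**Figure D2:**
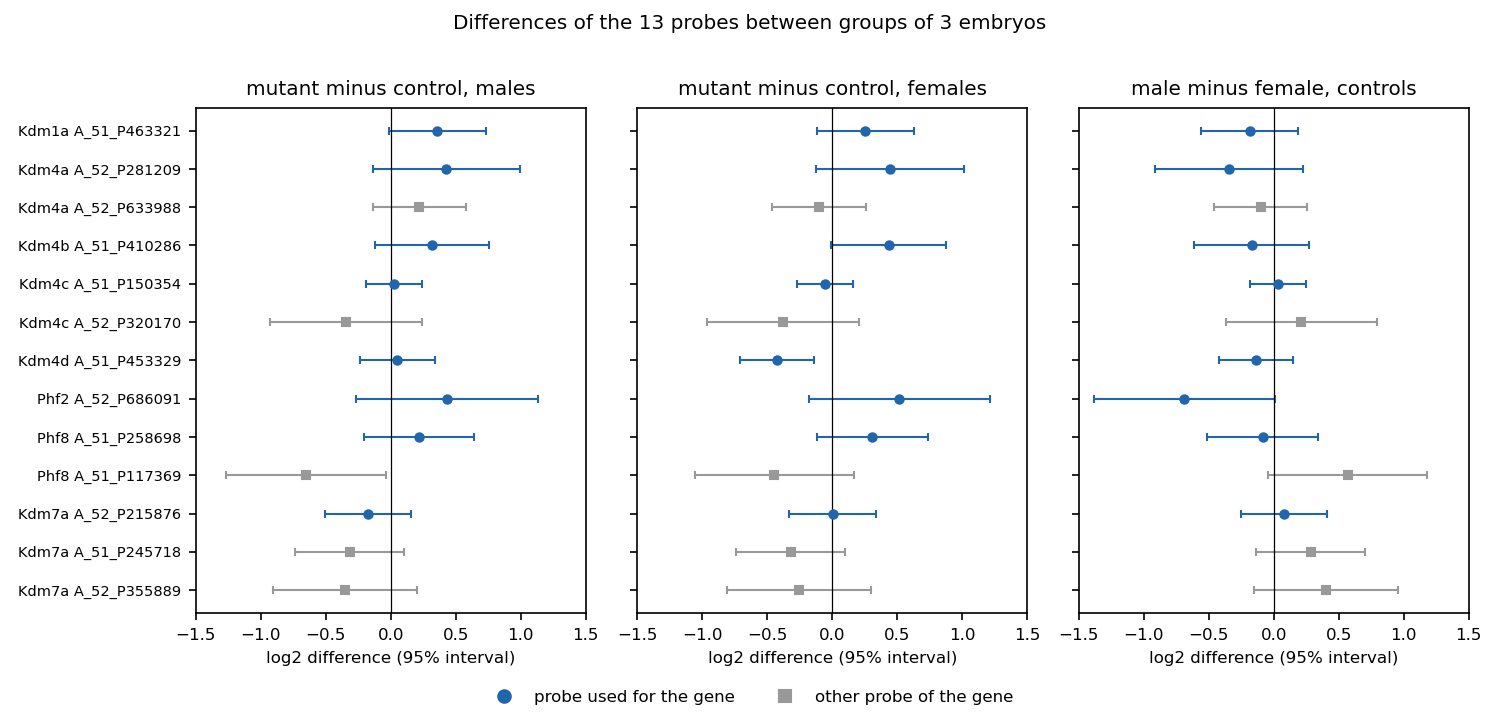
Log2 differences of the 13 probes of the 8 demethylases for mutant minus control in males and in females and for male minus female in controls, with 95% intervals from the limma fit, in blue for representative and grey for further probes. Kdm4d in females and the second Phf8 probe in males have intervals that leave out 0 before adjustment, and no probe was called after it.

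The arrays lay on 3 slides, each scanned once, and slide was tied to the groups. Slide 1 held the control males with mutant male 1, and slide 3 held the mutant females with control female 3, so that each sets 3 arrays of one genotype against 1 of the other. On slide 1, mutant male 1 exceeded the mean of the control males by 0.53 for Kdm4a, 0.39 for Kdm4b, 0.52 for Kdm1a and 0.75 for Phf2 (log2 differences). On slide 3, the mutant females differed from control female 3 by -0.13 for Kdm4a, 0.03 for Kdm4b, -0.08 for Kdm1a, -0.05 for Phf8 and -0.14 for Phf2. A limma fit over all 12 arrays with slide as a block gives the same values, and none was called (adjusted p from 0.291 to 0.381 for these genes in males, and 1 in females). The female difference above 0 in Kdm4a, Kdm1a, Phf8 and Phf2 was thus not present within slide 3. The lower level of Kdm4d in mutant females was, at -0.42, and it was not called with slide as a block. All these values within slide 3 rest on 1 control array, control female 3. Slide 2 held no control male and no mutant female.

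In males, summed markers of mesonephric epithelium, the tissue beside the gonad, did not overlap between the genotypes. Neither did summed neural markers, at 0.971 to 1.1 in control males and 1.13 to 1.51 in mutant males, while endothelial sums overlapped. Among single features, 20.3% did not overlap between control and mutant males. All 7 mesonephric markers had a higher mean in mutant than in control males, as did 44.6% of all features. Their log2 differences ran from 0.10 ± 0.18 (SE) for Pax2 to 1.89 ± 0.49 for Wnt9b. Their summed signal relative to the 75th percentile was 1.59 to 2.71 in control males and 4.69 to 10.5 in mutant males. In females it was 3.94 to 5.02 in controls and 1.81 to 6.9 in mutants. None of the 7 was called in either sex, and Pax8, Gata3, Wnt9b and Cdh16 were well above background on all 12 arrays. Summed gonadal somatic markers were at 43 to 50.9 and 44.9 to 59.2 in control and mutant males and 44.5 to 64.2 and 52.3 to 72.8 in control and mutant females. On the arrays of control female 3, mutant females 1 to 3 and mutant males 1 and 3 this sum was 52.3 to 72.8, and on the other 6 arrays 43 to 50.9. Those 6 arrays are also the highest for 5 of the members, as given below. The summed erythroid markers ran from 15.8 to 470 over the arrays. Of the germ cell markers, Ddx4 was well above background on 12 arrays, Dppa3 on 11, Pou5f1 on 8 and Dazl on 0. Ddx4 had an averaged mutant difference of 0.97 ± 0.24 (SE) and was not called (limma, unadjusted p = 0.00198, adjusted p = 0.0873). Summed germ cell markers were 0.106 to 0.503 in controls and 0.247 to 0.835 in mutants, both sexes together. Of the macrophage and leukocyte markers, Csf1r and Aif1 were well above background on 11 arrays each, Adgre1 on 8 and Lyz2 on 0, and their sums overlapped between genotypes in both sexes. The part of these cells in the members' values was not tested.

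Sex differences were asked of each genotype separately, as males minus females. None of the 8 was called in controls, where 0.177% of all features were, or in mutants, where 0.13% were. At an unadjusted limma p under 0.05 the members numbered 0 in controls and 2 in mutants, against 10.8% and 11.5% of all features. In controls the largest log2 difference was that of Phf2, -0.69 ± 0.317 (SE), with a limma adjusted p of 0.464. It was -0.29 and -0.28 under the 2 normexp settings and -0.04 with array brightness as a covariate. Kdm4a followed at -0.34, Kdm1a at -0.18, Kdm4b at -0.17, Kdm4d at -0.14 and Phf8 at -0.08. Kdm7a, at 0.08, and Kdm4c, at 0.03, were above 0. Control males and control females overlapped for all 8, while 15.9% of all features did not overlap.

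Among mutants the sexes did not overlap for 3 of the 8, Phf2, Kdm4d and Kdm4c, against 22.8% of all features. Phf2 was lower in mutant males by a log2 difference of -0.77 ± 0.317 (SE), with a 95% interval from -1.47 to -0.07 (limma, unadjusted p = 0.0339, adjusted p = 0.409). Mutant males and mutant females lay on different slides. With slide as a block the Phf2 difference was 0.06, and with array brightness as a covariate 0.0028. Kdm4d was higher in mutant males by 0.34 ± 0.13 (limma, adjusted p = 0.389), and Kdm4c by 0.12 ± 0.0972 (adjusted p = 0.593). For Kdm4d and Kdm4c these were 0.41 and 0.06 with slide as a block and 0.17 and 0.01 with brightness, none called. Phf8, the X-linked member, gave no sex difference past the threshold in controls (95% interval from -0.51 to 0.34).

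By their representative probes, 5 members were high and low on the same arrays. The 6 arrays with the highest Kdm4a level were control female 3, the 3 mutant females, and mutant males 1 and 3. These included 5 of the 6 mutants and 1 of the 6 controls, so that the division matched genotype apart from control female 3 and mutant male 2. The same 6 arrays were also the highest 6 for Kdm4b, Kdm1a, Phf8 (its representative probe) and Phf2. For Kdm4a, these 6 lay between 2.95 and 3.53 and the others between 2.31 and 2.64. Kdm4c, Kdm4d and Kdm7a, by their representative probes, did not divide the arrays in this way.
This division was common on the arrays. Among all features measured on every array, 11.5% had the same 6 arrays on top, 12.8% had them all at the bottom and 24.3% had either. Of the 13 member probes, 5 had them on top, the Kdm4a probe that defined them included, and 3 had them at the bottom, against 10.4% and 13% of all probes, or 23.4% for either. Those at the bottom were the further probes of Phf8 and Kdm4c and probe A_52_P355889 of Kdm7a. The 6 arrays include all 4 arrays of slide 3 and 1 each of slides 1 and 2. Summed gonadal somatic markers divide the arrays in the same way, and their part in the division was not tested. The 75th percentile of the signal was 204.9 to 299.5 on them and 142.9 to 250.1 on the others. Over all 12 arrays, 9 of the 13 member probes were related to this brightness by a two-sided permutation test adjusted over the 13. Pearson's r over the 13 ran from -0.91 to 0.92. The share of all probes so related was not computed, so the count shows nothing particular to the members. For Phf2, Pearson's r was 0.92 (permutation p = 6e-05, adjusted 0.00039) and Spearman's rho 0.92 (p = 7e-05, adjusted 0.00036). Without the 2 arrays farthest from the median r was 0.91, and with group means removed 0.80. For Kdm4a, r was 0.83 (permutation p = 0.0013, adjusted 0.0035) and rho 0.90 (p = 0.00012, adjusted 0.00036), with r at 0.81 without 2 arrays and 0.75 with group means removed. Each level has the array's log2 75th percentile subtracted, so level and brightness are not separate measures. Brightness also went with slide, at 142.9 to 220.7 on slide 1 and 268.3 to 299.5 on slide 3. The permutations treated all 12 arrays as exchangeable, so these p-values are a description of these arrays only.

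**Figure D3:**
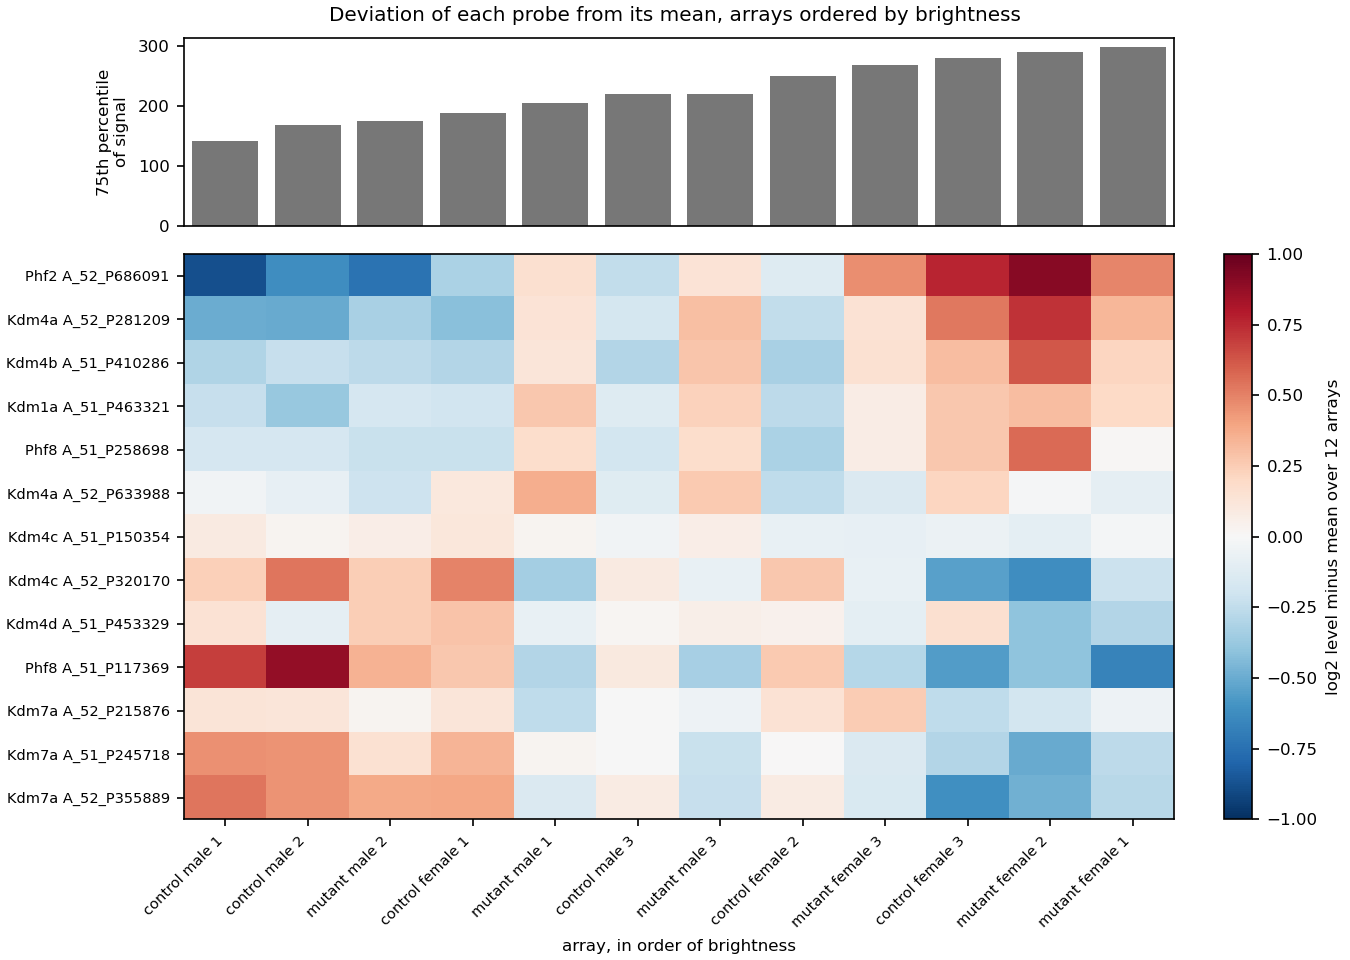
Lower panel: log2 level of each of the 13 member probes on each array as a deviation from the mean of the probe over the 12 arrays, in colour; upper panel: the 75th percentile of the signal of the same array, by which arrays are ordered. Control female 3 and mutant males 1 and 3 share the direction of the mutant females for Phf2, Kdm4a, Kdm4b and Kdm1a, and the second probe of Phf8 runs the other way.

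With the group means removed, the 10 pairs among Kdm4a, Kdm4b, Kdm1a, Phf8 and Phf2 had Pearson's r from 0.84 to 0.97 over the 12 arrays, a description of arrays that share slide and brightness. Within the 6 arrays on top, r ran from 0.26 to 0.94 (Spearman's rho from 0.43 to 0.94), and within the other 6 from -0.67 to 0.69 (rho from -0.67 to 0.66). No pair passed in either set by an exact two-sided permutation test adjusted over the 10 pairs in both sets together, with lowest adjusted p of 0.083 and 0.33. Without the 2 arrays farthest from the median, r ran from -0.30 to 0.97 and from -0.90 to 0.80. Each set holds 6 arrays and was cut on the Kdm4a level itself, which narrows the range, so these tests do not show that the genes were unrelated within a set.

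Kdm4a, Kdm4c, Phf8 and Kdm7a each had further probes, and these often went another way. The second probe of Phf8 (A_51_P117369) read -2.77, -2.77 and -3.60 for control females and -3.71, -3.44 and -3.33 for mutant females. For control males it read -2.34, -2.16 and -2.94, and for mutant males -3.33, -2.69 and -3.37. It was lower in mutants where the representative probe (A_51_P258698) was higher. The log2 differences of this second probe were -0.65 ± 0.279 (SE) in males and -0.44 ± 0.279 in females, none of them called (limma with every probe tested, adjusted p = 0.415 and 0.495). On average over the sexes the difference was -0.55 ± 0.197 (limma, unadjusted p = 0.0178, adjusted p = 0.181). The direction of Phf8 in mutants therefore depended on the probe. With every probe tested, 0 of the 13 member probes were called in any comparison, and 0.399%, 0.294% and 0.895% of all probes were called for the mutant effect in males, in females and on average.

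The second Kdm4c probe (A_52_P320170) ranged from -3.71 to -2.55, a 2.24-fold range where the representative probe (A_51_P150354) had 1.15-fold. Its log2 difference was -0.38 ± 0.265 (SE) in females and -0.34 ± 0.265 in males (limma, adjusted p = 0.513 and 0.526). For Kdm7a, probes A_52_P355889 and A_51_P245718 were lower in mutants of both sexes. The log2 differences were -0.26 and -0.35 for the first and -0.32 and -0.31 for the second in females and males, none called. In the 6 arrays lowest for Kdm4a these probes of Kdm7a followed each other (Pearson's r = 0.94, exact two-sided permutation p = 0.0014, adjusted 0.017 over the 6 pairs in both sets). Spearman's rho was 1.00 (exact permutation p = 0.0028, adjusted 0.033). Without the 2 arrays farthest from the median r was 0.78, and in the 6 highest arrays r was 0.72 (exact permutation p = 0.1, adjusted 0.58). No other pair of probes of one gene passed this test in either set.
The second Kdm4a probe (A_52_P633988) ranged from -2.28 to -1.66, with a log2 difference of -0.10 ± 0.164 in females and 0.22 ± 0.164 in males (limma, adjusted p = 0.751 and 0.516). It did not divide the arrays as the representative probe (A_52_P281209) did. The files used here do not place the probes on isoforms.

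**Figure D4:**
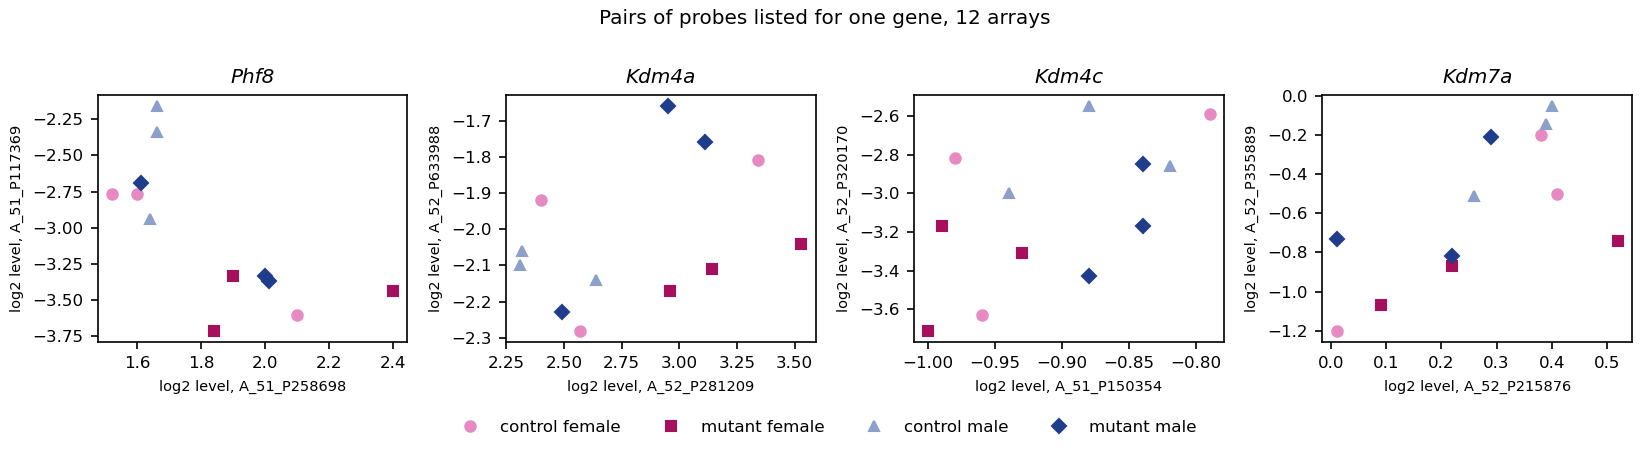
Log2 level of a further probe (vertical) against that of the representative probe (horizontal) for Phf8, Kdm4a, Kdm4c and Kdm7a, a point for each of the 12 arrays, with colours and shapes for the 4 groups. The further Phf8 probe is low where the representative probe is high, and the Kdm4c representative probe spans a narrow range on its axis.

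The genes whose levels followed each member most closely over the 12 arrays were taken from 13211 named genes by Pearson's r, as a description: the arrays share slides, brightness and the division described above. For Kdm4a they were Pfkm (r = 0.995) and Akt1 (0.993), and 12.3% of the genes had r over 0.9. For Phf2 they were Nup214 (0.991) and Pacs1 (0.990), for Kdm4b Fndc3b (0.990) and Nup188 (0.987), and for Kdm1a Sars2 (0.981) and Tmem151a (0.980). For Phf8 they were Gata6 and Ago2, both at 0.971. High likeness was thus common for these 5 genes: 8.89%, 7.89%, 7.4% and 3.25% of the genes passed 0.9 for Phf2, Kdm4b, Kdm1a and Phf8.
It was rare for the others. Kdm7a was nearest to Zfp933 and Pola1 (both r = 0.952), with 13 genes over 0.9. Kdm4c was nearest to Ppme1 (0.925) and Rnf113a1 (0.913), with 2 genes over 0.9, and Kdm4d to Calr4 (0.915) and Dlgap2 (0.869), with 1.

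Genes that work with these demethylases were read from lists by role. Of 16 partners of LSD1, 14 were measured and none was called in any comparison. For the averaged mutant effect, 11 were above 0 and 3 below, with a median log2 difference of 0.10 against -0.05 over all features. The 2 with the smallest p were Mta2, a subunit of the NuRD complex, at 0.30 ± 0.10 (SE), and Rcor2, a CoREST scaffold of LSD1, at 0.51 ± 0.19 (limma, adjusted p = 0.166 and 0.177). All 4 listed PHF partners were measured and none was called; Hcfc1, a chromatin cofactor that binds Phf8, was at 0.30 ± 0.14 (limma, adjusted p = 0.226).
The KDM3 enzymes closest to Kdm3a were not called either. Kdm3b was at 0.57 ± 0.17 on average (limma, unadjusted p = 0.00731, adjusted p = 0.145), and Jmjd1c was at 0.01 ± 0.11. On the opposing side, the list of H3K9 methyltransferases and their partners held 14 names, with Mecom entered also as Prdm3. Of these, 12 were measured and none was called. Their median was 0.18, with Trim28, a corepressor that recruits Setdb1, at 0.51 ± 0.17, and Wiz, a partner of the G9a enzyme, at 0.51 ± 0.20 (limma, adjusted p = 0.165 and 0.185). Of the 3 HP1 readers of the mark, 0 were called, with Cbx1 at -0.19 ± 0.10 and Cbx3 at -0.11 ± 0.11 (adjusted p = 0.257 and 0.494).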

How the data were processed

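RNA of purified gonadal somatic cells from 12 single embryos was amplified, labelled with Cy3 and hybridised to Agilent 1-colour arrays. Per the file headers, the deposited values are processed signal intensities from Agilent Feature Extraction 10.5.1.1 (array design 014868), linear, corrected for background within the array and unscaled between arrays. From these intensities, log2 of the signal minus the array's 75th percentile was computed. Control spots and outlier spots were left out and spots of a probe averaged. Accessions were named through RefSeq (GRCm38.p6); array coordinates were not used. Probes well above background throughout some group were tested, the brightest on average representing its gene, giving 19178 features. Group means were fitted in limma 3.58.1 (R 4.3.3) over all 12 arrays, with Benjamini-Hochberg adjustment at 0.05. For correlations (scipy 1.17.1), p-values over all 12 arrays came from 100000 random permutations. Those within the sets of arrays cut on the Kdm4a level came from exact permutation tests. The fit was tested on simulated data.

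Each limma p-value uses the spread between embryos, pooled over the 4 groups, whereas the p-values of correlations come from permuting arrays. Each of the 8 genes is reported with every probe; of each other list, the 2 genes with the smallest p for the averaged mutant effect and any called gene are named, and of likeness the 2 highest r. A gene that this rule names is not reported here. The members and lists were chosen with earlier results of these data known. Alternatives were quantile normalization, normexp background correction (offset 50), other filters, every probe separately, only the compared groups, replicate number or slide as a block, and leaving out each array. Array brightness as a covariate, and normexp with flagged local backgrounds replaced by the median of the array, were added after seeing the data, as was the division of the arrays by Kdm4a.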

Additional observations from a re-analysis of the deposited data

How the results depend on the processing

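Of 804 values of the 8 demethylases under the alternatives, 753 kept their direction and their side of the threshold, 47 changed direction and 4 were newly called, those without control female 3 (Kdm4a, Kdm4b, Kdm1a and Phf2 on average). No member was called under any alternative that kept all 12 arrays. Without each array in turn, 0 to 4 members were called on average, and 0 in the other comparisons. Over those fits the features called were 26 to 93 in males (90 with all arrays), 31 to 133 in females (68), 126 to 4826 on average (214), 19 to 40 for sex in controls (34), 11 to 38 for sex in mutants (25) and 0 for the difference of the mutant effects. By array, those in males were 26 and 37 without control males 1 and 2, 52 without control male 3 or mutant male 1, 48 and 32 without mutant males 2 and 3, 44 without control female 2 and 55 without mutant female 3. In females they were 36, 32 and 133 without control females 1, 2 and 3 and 31, 43 and 37 without mutant females 1, 2 and 3. On average they were 140 and 126 without control females 1 and 2, 136 without control male 1 and 138 without mutant male 3. For sex in controls they were 22, 20 and 19 without control females 1, 2 and 3, 22 without mutant female 1 and 21 and 20 without control males 1 and 2. For sex in mutants they were 38 without control female 3, 11, 15 and 13 without mutant females 1, 2 and 3, and 14 and 16 without mutant males 1 and 3.

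In the order of males, females, their average, sex in controls and sex in mutants, normexp with backgrounds as deposited called 10, 7, 36, 4 and 4 features. Slide as a block called 52, 13, 58, 13 and 7, and 8 for the difference of the mutant effects. Brightness as a covariate called 54, 42 and 116 for the mutant effects, 10 for sex in mutants and 1 for the difference. Fits of only the compared groups called 26 in males, 34 in females and 10 for either sex comparison. No filter called 35 in males and 43 in females, and probes well above background on all arrays 11 for sex in mutants. The replicate number did not pair the samples: same-numbered deviations correlated from -0.53 to 0.43, and as a replicate block it called 62, 48, 175, 23 and 16 features and changed no member's call.

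The values that changed direction, none of them called, were as follows. In males, Kdm1a was -0.02 under normexp as deposited, Kdm4c -0.01 and Kdm4d -0.09 with its backgrounds replaced, and Kdm4d -0.10 with the slide block. In females, Kdm7a was -0.00029 under quantile normalization and -0.01 under both normexp settings, and the slide block gave Kdm4a -0.13, Kdm1a -0.08, Phf8 -0.05 and Phf2 -0.14. On average, Kdm4c was 0.01 under quantile normalization, 0.04 under normexp as deposited and 0.03 with brightness, Kdm4d 0.06 under normexp as deposited, and Kdm7a 0.01 with brightness. For sex in controls, Kdm4d was 0.27 and 0.29 under the normexp settings and 0.09 with the slide block. With brightness, Kdm4a was 0.14, Kdm4b 0.08, Kdm4c -0.06, Kdm1a 0.05, Phf8 0.10 and Kdm7a -0.10. For sex in mutants and for the difference of the mutant effects, only the values the report gives were recomputed (Kdm4c, Kdm4d and Phf2, and Kdm4d). For sex in mutants, Phf2 was 0.06 with the slide block and 0.0028 with brightness. The second Phf8 probe gave -0.65 in males, -0.44 in females, -0.55 on average and 0.57 for sex in controls. Further probes gave -0.32 and -0.26 for Kdm7a and -0.10 for Kdm4a in females and -0.34 for Kdm4c in males. In the fit of every probe, further probes also went the other way for sex in mutants, at 0.36 against -0.17 for Phf8, 0.22 against -0.36 for Kdm4a, and 0.30 and 0.29 against -0.10 for Kdm7a. Values that kept their direction could still move by over 1.5 times: of 237 whose size with all arrays was over 0.15 on the log2 scale, 48 were smaller and 6 larger by that much. Brightness as a covariate made 18 smaller, the normexp settings 8 and 9, slide as a block 7 and quantile normalization 3. Kdm4d in females was -0.27 under quantile normalization and -0.26 under both normexp settings.

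Leaving out 1 array moved Kdm4c between -0.0026 and 0.06 and Kdm4d between -0.03 and 0.13 in males, Kdm4c between -0.09 and 0.0017 and Kdm7a between -0.12 and 0.10 in females, and Kdm4c between -0.03 and 0.01 on average. For sex in controls it moved Kdm4b between -0.28 and 0.03, Kdm4c between -0.00061 and 0.09, Phf8 between -0.20 and 0.10 and Kdm7a between -0.05 and 0.15. The causes were not tested. Kdm4d, with levels between -4.55 and -3.86, was closest of the representative probes to the lowest signals well above background, which ran from -5.26 to -4.32 over the arrays.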

Other observations

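Other JmjC demethylases were on the arrays beside those of H3K9. Of 15 listed, 14 were measured and none was called for the mutant effect in either sex or on average. Riox1, a nucleolar JmjC oxygenase, had a log2 difference of 0.56 ± 0.16 (SE) on average and Kdm5c, an X-linked H3K4 demethylase, 0.38 ± 0.14 (limma, adjusted p = 0.13 and 0.177). The Y-linked Kdm5d and Uty were called for sex in both genotypes, with log2 differences between males and females of 6.55 ± 0.31 and 3.98 ± 0.22 in controls (limma, adjusted p = 1.93e-06 and 4.97e-06) and of 7.38 ± 0.31 and 4.22 ± 0.22 in mutants (adjusted p = 5.37e-07 and 3.68e-06). Genes that supply or clear the cofactors of these enzymes, such as Idh1, which makes 2-oxoglutarate, and Sdhb, a subunit of succinate dehydrogenase, were measured for 6 of 7 listed. None was called in any comparison, and on average Sdhb was at -0.23 ± 0.12 and Idh1 at -0.16 ± 0.10 (limma, adjusted p = 0.241 and 0.296).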
